A study of Mus musculus with 24 samples.

Results

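The 38 mitosis genes examined here were the rows, among 51912 genes of the count table, whose symbol matched a fixed list of genes needed to divide a cell, and each symbol was found once. Entry into mitosis is driven by the kinase CDK1 bound to a B-type cyclin, after which condensin and topoisomerase II shape the chromosomes and kinesin motors build the spindle. Kinetochores attach the chromosomes to the spindle, the spindle checkpoint holds back the anaphase-promoting complex until all are attached, and midzone proteins then direct cytokinesis. Most of these genes are transcribed in the G2 and M phases and are silent in resting cells, so in a whole organ their RNA is widely used as a readout of dividing cells, and growth of the fetal lung rests on such division in its epithelium, endothelium and mesenchyme. In RNA from a whole lung, fewer dividing cells and less RNA per dividing cell cannot be told apart.

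RNA was sequenced from whole mouse lungs at embryonic day 16 (E16), postnatal day 0 (P0) and postnatal day 3 (P3), with 4 control and 4 conditional knockout (CKO) lungs per stage, to learn what loss of Sin3a in lung mesenchyme changes at each stage. The SIN3A protein is the scaffold on which histone deacetylases and their partners assemble into a corepressor. By the titles all groups carried Tbx4rtta and tetocre, in which a transactivator under Tbx4 control, active in lung mesenchyme, turns on Cre from a tetO promoter when doxycycline is given, and dams received doxycycline from embryonic day 12. The Sin3a genotype was F/+ in controls at E16 and P0 and F/F in CKO lungs at every stage. Titles give F/F for the P3 controls too, so these were told from P3 CKO lungs by the words control and CKO alone. Controls with both transgenes can lose a floxed allele in the same cells. The driver is aimed at mesenchyme and not at epithelial, endothelial or blood cells, and Sin3a was not measured by cell type here.

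Libraries held 27.02 to 36.35 M expected counts, and a member's count in 1 library ran from 34 to 35328. Levels are CPM (counts scaled to library size) after TMM scaling, given per library, and CPM is not corrected for transcript length, so it is compared between libraries and never between genes. Sin3a itself, the targeted gene, did not separate the genotypes, with 125 to 142 CPM in controls and 105 to 144 in CKO lungs at E16, and ranges that overlapped at P0 and P3 as well. Cells that never made Cre, and exons that deletion leaves in place, add to such a gene-level count. Markers of alveolar epithelium, endothelium and mesenchyme were present in every library, with no marker at 0. A pair of P0 libraries, control replicate 3 and CKO replicate 1, carried thymus RNA: 14 thymocyte markers summed to 2250.3 and 1729 CPM in them and to 14.8 to 46.1 CPM in the other 22 libraries. Thymocytes divide rapidly in the newborn, so the members' P0 changes are given with and without these libraries. Cartilage markers summed to 360.4 CPM in P0 CKO replicate 3 and to 10.4 to 141 CPM in the other 23 libraries. Summed erythroid markers ranged from 4278 to 34190.3 CPM, and 9 leukocyte markers summed to 125 to 159 CPM at E16, 814 to 1946 at P0 and 1464 to 2096 at P3. What blood, thymus and leukocytes contributed to the members' counts was not tested. By the annotation, 16 members overlap a gene on the opposite strand and 7 one on the same strand, and the strand setting of the counting is not given in the sources used here, so reads from such partners cannot be told apart. Xist was above 100 CPM in 1 control and 4 CKO libraries at E16, 3 and 2 at P0 and 1 and 2 at P3, so the sexes were unequally spread over the groups.

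Promoters of genes of the G2 and M phases are known to carry the CHR element, bound by the DREAM and MuvB-FOXM1 complexes, together with CCAAT boxes, bound by NF-Y. The 250 bases upstream of the start are shown for 4 members whose values are given library by library, since they show how these letters lie in front of the proliferation marker Mki67, the topoisomerase gene Top2a, the kinase gene Cdk1 and the checkpoint target Cdc20. Sequences are from RefSeq on GRCm38.p6, 5′ to 3′ on the strand of the gene, which is the minus strand for all 4, namely Mki67 at chr7:135716380-135716629, Top2a at chr11:99024190-99024439, Cdk1 at chr10:69352913-69353162 and Cdc20 at chr4:118437344-118437593. Capitals mark TTTGAA (the CHR letters) and CCAAT or their reverse complements TTCAAA and ATTGG.
Mki67: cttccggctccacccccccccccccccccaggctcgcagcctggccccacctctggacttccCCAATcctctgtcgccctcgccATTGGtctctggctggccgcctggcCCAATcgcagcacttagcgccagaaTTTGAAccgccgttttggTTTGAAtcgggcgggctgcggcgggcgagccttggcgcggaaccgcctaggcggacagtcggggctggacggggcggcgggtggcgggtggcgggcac
Top2a: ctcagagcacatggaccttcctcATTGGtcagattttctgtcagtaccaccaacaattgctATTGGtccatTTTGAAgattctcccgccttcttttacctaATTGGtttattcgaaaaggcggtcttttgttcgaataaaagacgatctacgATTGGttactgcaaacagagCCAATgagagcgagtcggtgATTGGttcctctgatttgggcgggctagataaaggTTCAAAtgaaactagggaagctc
Cdk1: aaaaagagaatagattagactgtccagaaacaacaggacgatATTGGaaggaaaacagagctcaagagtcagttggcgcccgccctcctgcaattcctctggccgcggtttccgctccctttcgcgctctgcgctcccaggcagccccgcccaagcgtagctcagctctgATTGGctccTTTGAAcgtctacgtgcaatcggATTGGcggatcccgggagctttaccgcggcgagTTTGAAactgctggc
Cdc20: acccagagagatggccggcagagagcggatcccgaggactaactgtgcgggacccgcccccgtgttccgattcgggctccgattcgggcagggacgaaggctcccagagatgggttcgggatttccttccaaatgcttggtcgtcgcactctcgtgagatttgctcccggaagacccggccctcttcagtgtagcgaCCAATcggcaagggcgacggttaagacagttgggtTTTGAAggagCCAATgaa

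In these windows Mki67 has TTTGAA starting 116 and 98 bases before the start, Cdk1 71 and 15 bases before it and Cdc20 18 bases before it, and Top2a has it 179 bases before the start and as TTCAAA 23 bases before it. Each has CCAAT letters as well, with 6 matches in Top2a, 3 in Mki67 and Cdk1 and 2 in Cdc20. Windows of 250 bases before to 50 bases after the start were at hand for 31 of the 38 members, and the others were not looked at. In these windows TTTGAA on either strand was found in 23 members (74.2%) against 20.2% of all 27025 genes with such a window. CCAAT on either strand was found in 23 members (74.2%) against 41.1%, and the E2F-like TTCCCGC in 1, the condensin gene Ncapg (3.23% against 5.29%). None of the printed matches overlaps another. Within 50 bases on either side of the start, a window added after the positions were seen, 21 members held TTTGAA (67.7%) against 5.72% of all genes. A match is a description of letters and shows neither a bound site nor a cause of the values that follow.

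All 38 members fell from E16 to P0 in both genotypes and stood higher again at P3, without coming back to the E16 level. The median member at P0 had 18.5% of its E16 mean in controls and 20.9% in CKO lungs, or 13.2% and 19.2% without the thymus-carrying libraries. At P3 it had 43.4% and 49.3%. By the quasi-likelihood test of edgeR (p adjusted over all genes after Benjamini and Hochberg), with all 24 libraries in 1 fit of 6 groups, 38 of 38 members were lower at P0 than at E16 in controls, where 22.3% of all genes were lower, and 38 of 38 in CKO lungs, against 20.6%. The median log2 fold change was -2.43 and -2.26, beside 0.05 and 0.06 over all genes tested. No P0 library of either genotype reached the lowest E16 library of its genotype for any of the 38 members, a separation seen in 20.9% of all genes in controls and 16.7% in CKO lungs. Without the thymus-carrying libraries the medians were -2.92 and -2.38, again with 38 of 38 called lower (background 24.5% and 21.5%) and no overlap for 38 of 38 (25.6% and 20.4%).

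From P0 to P3 all 38 members had a positive change in both genotypes, and 29 rose in controls and 29 in CKO lungs, where 4.97% and 6.15% of all genes rose. The median log2 fold change was 1.20 and 1.22, beside -0.03 and -0.04 over all genes. The 4 P3 libraries stood above all 4 P0 libraries for 21 members in controls (background 8.97%) and 29 in CKO lungs (7.83%). Without the thymus-carrying libraries all 38 rose in each genotype, with medians of 1.76 and 1.31 (background 10% and 5.45%), and the members whose libraries did not overlap numbered 38 and 35 (background 16.9% and 10.2%). The members that did not pass with all libraries were the cyclin gene Ccnb1, the kinase genes Plk1 and Aurka, the passenger gene Incenp, Bub1b, Cdc20, Ube2c and Cenpa in both genotypes, with Kif11 in controls and Espl1 in CKO lungs. In controls the count with all libraries also rested on single P0 libraries, with 16 members called without control replicate 1 (background 2.81%) or without control replicate 2 (2.39%) and 38 without control replicate 3 (7.8%). Fitted on these control groups alone, 11 rose (2.44%).

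Between E16 and P3, 37 of 38 members were lower at P3 in controls (background 21.1%) and 34 in CKO lungs (18.8%), with medians of -1.20 and -1.02 on the log2 scale. All 38 members had every P3 library below every E16 library in both genotypes, where 25.1% and 20.5% of all genes did. The kinetochore gene Cenpf did not pass in controls, and Cenpe, Cenpf, Mki67 and Top2a did not pass in CKO lungs. The smallest p-values were those of Incenp (-1.29 ± 0.23, adjusted p = 0.000159), Kif23 (-1.21 ± 0.23, 0.000289) and Ncaph (-0.74 ± 0.14, 0.00033) in controls, and of Ncaph (-0.84 ± 0.14, 9.91e-05), Incenp (-1.13 ± 0.23, 0.000612) and Kif2c (-1.49 ± 0.34, 0.00151) in CKO lungs, by edgeR. Both stage courses share groups, so the 3 contrasts of a genotype are not independent of one another. No prefix of the library identifiers in the labels is shared between stages, and the P3 libraries carry only prefixes 23 and 9902. Stage therefore cannot be told apart from whatever the prefix stands for, nor from a preparation that differed with it.

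Cell-type markers moved with the stages too. Summed over 10 genes, alveolar epithelial markers were at 4168 to 5848 CPM in E16 controls, 10499 to 16913 in P0 controls and 10663 to 14158 in P3 controls, and at 3024 to 5541, 10798 to 14397 and 10419.7 to 12209 CPM in CKO lungs. The 8 endothelial markers summed to 1682 to 1885, 2221 to 3825 and 3041 to 3301 CPM in controls and to 1501 to 1787, 2429.7 to 3053 and 2125 to 3304 CPM in CKO lungs. Both lists were thus higher at P0 and P3 than at E16 in every library, while 10 mesenchymal markers overlapped between stages, at 3994 to 5801, 3377 to 5426 and 4708 to 6614 CPM in controls. Their part in the members' course was not tested.

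**Figure D1:**
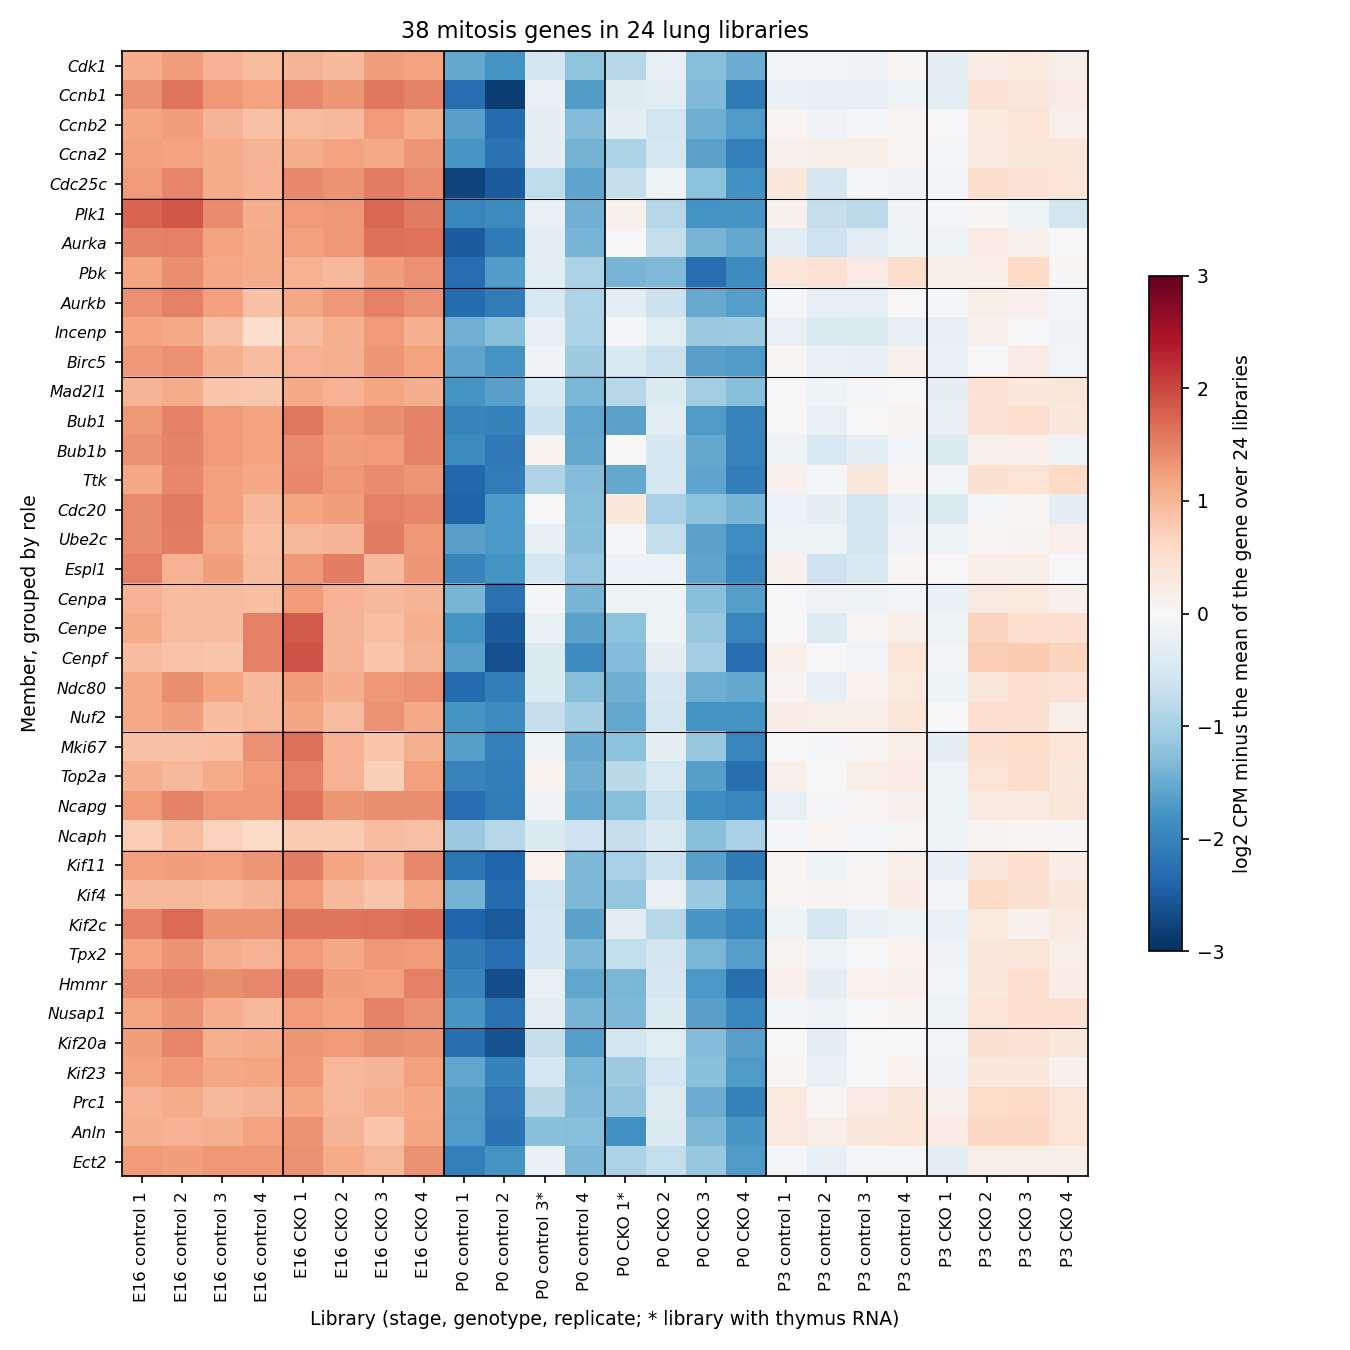
Each row is 1 of the 38 members, ordered by role, and each column 1 of the 24 libraries, coloured by log2 CPM minus the mean of that member over all libraries. The E16 columns are the highest of their genotype for every member, most P0 columns are the lowest, with the thymus-carrying libraries marked, and the P3 columns lie between for most members. Exceptions include Cdc20, which is higher in both thymus-carrying libraries than in the P3 libraries of their genotype.

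The average of the members in a library, given as mean log2 CPM after centring each member on its mean over the 24 libraries, showed how the libraries of a stage spread. It was 1.22, 1.3, 1.11 and 1.09 in E16 controls and 1.31, 1.15, 1.23 and 1.29 in E16 CKO lungs. At P0 it was -1.92, -2.09 and -1.35 in control replicates 1, 2 and 4 and -0.50, -1.45 and -1.80 in CKO replicates 2, 3 and 4, with -0.38 and -0.80 in the thymus-carrying control and CKO library. At P3 it was 0.03, -0.17, -0.07 and 0.08 in controls and -0.14, 0.32, 0.34 and 0.20 in CKO lungs. The P0 libraries were the most widely spread, both genotypes overlapped at all 3 stages, and no P0 library reached the P3 range. Among P0 controls the thymus-carrying library was the highest, and among P0 CKO lungs replicate 2, which carries no thymus RNA, was higher than the thymus-carrying one.

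**Figure D2:**
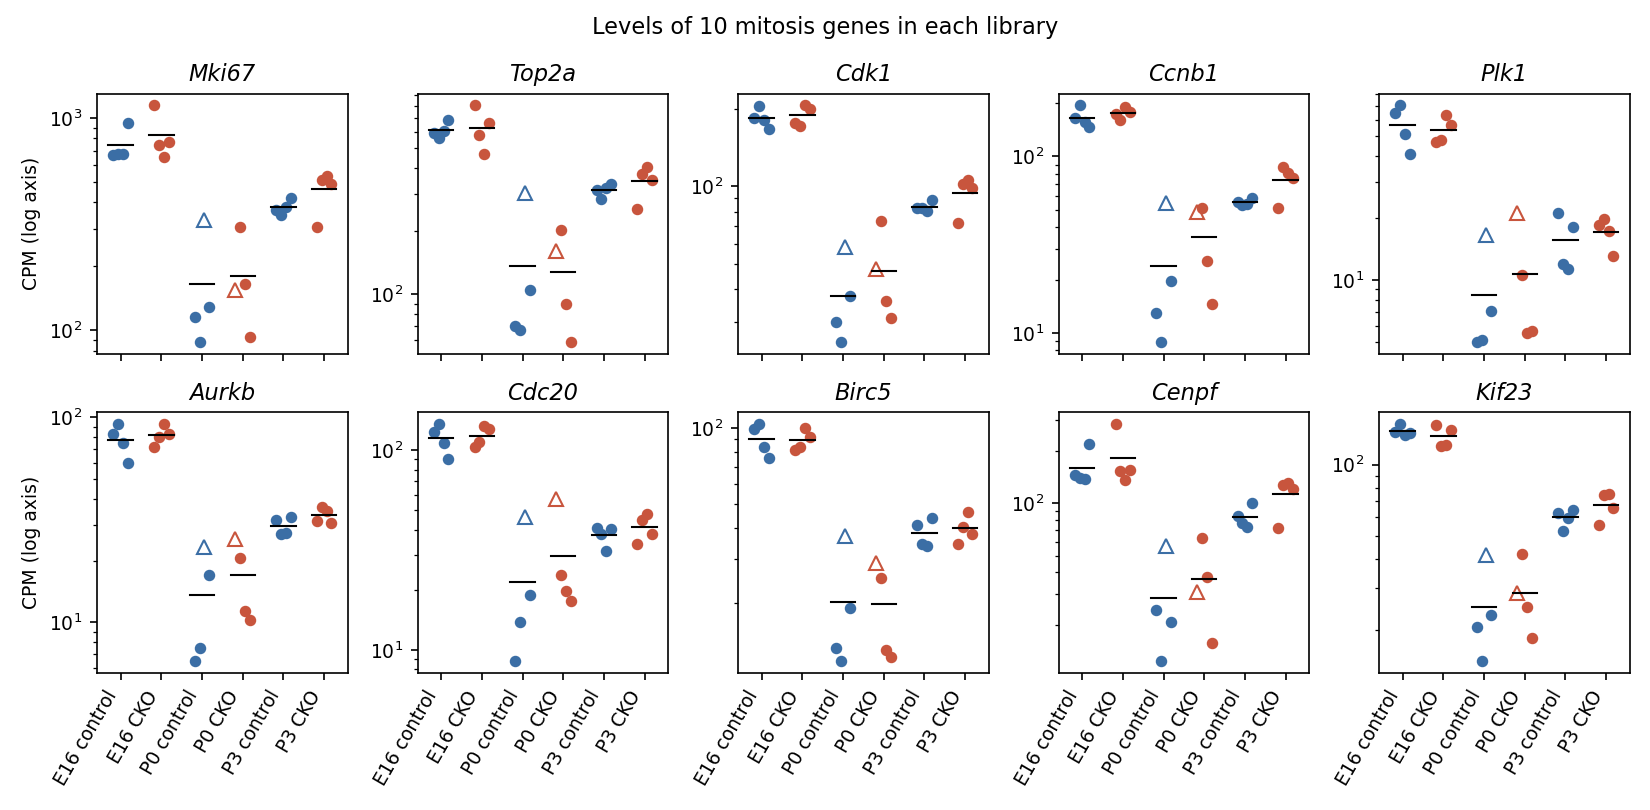
Each panel gives the CPM of 1 of the 10 members described by library, on a log axis, against stage, with controls in blue and CKO lungs in red. Filled symbols are lung libraries and open triangles the thymus-carrying P0 libraries. In every panel the E16 points lie highest. The P0 points lie below all P3 points for Aurkb, Cenpf and Kif23, and in the other panels 1 or 2 of the 8 P0 points, a thymus-carrying library or for Cdk1 CKO replicate 2, reach the P3 points.

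Among the 5 genes of CDK1, its cyclins and its activator (Cdk1, Ccnb1, Ccnb2, Ccna2 and Cdc25c), the median level relative to E16 was 19.2% in controls and 20.5% in CKO lungs at P0, or 13.3% and 19.9% without the thymus-carrying libraries, and 45.3% and 50.3% at P3. Cdk1 (ENSMUSG00000019942, mm10 chromosome 10, 69335146 to 69352938) encodes the kinase that starts mitosis. At E16 Cdk1 was measured at 184, 206, 180.4 and 168 CPM in control replicates 1 to 4 and at 176, 171, 206 and 200.1 CPM in CKO replicates 1 to 4. At P0 Cdk1 was at 29.9, 24.9 and 37.5 CPM in control replicates 1, 2 and 4 and at 73.5, 35.9 and 30.9 CPM in CKO replicates 2, 3 and 4. Cdk1 had 58.5 CPM in the thymus-carrying control and 47.9 CPM in the thymus-carrying CKO library. At P3 Cdk1 was at 82.4, 82.6, 80.4 and 88.8 CPM in controls and at 71.9, 102, 106 and 98.8 CPM in CKO lungs. The P0 libraries were all below the E16 and P3 control libraries, while P0 CKO replicate 2 lay within the range of the P3 CKO libraries. For Cdk1 the log2 fold change from E16 to P0 was -2.29 ± 0.24 in controls and -2.0 ± 0.23 in the CKO group (adjusted p = 1.56e-07 and 6.86e-07, edgeR). The value for Cdk1 from P0 to P3 was 1.15 ± 0.23 and 1.01 ± 0.23 (adjusted p = 0.00426 and 0.00718). Cdk1 without the thymus-carrying libraries had changes of -2.58 ± 0.23 and -2.01 ± 0.22 from E16 to P0 and 1.44 ± 0.22 and 1.02 ± 0.22 from P0 to P3, all called by edgeR (adjusted p of 0.00503 or less).

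Ccnb1 (ENSMUSG00000041431, mm10 chromosome 13, 100778650 to 100786570) encodes cyclin B1, the partner of CDK1, and has named pseudogenes in the annotation, as do Ccnb2 and Kif4, so the sharing of reads is uncertain for these 3. At E16 Ccnb1 was measured at 165, 195, 156 and 147 CPM in control replicates 1 to 4 and at 174, 160.1, 190.1 and 178 CPM in CKO replicates 1 to 4. At P0 Ccnb1 was at 13.1, 8.90 and 19.9 CPM in control replicates 1, 2 and 4 and at 51, 25.5 and 14.7 CPM in CKO replicates 2, 3 and 4. Ccnb1 had 54.8 CPM in the thymus-carrying control and 48.5 CPM in the thymus-carrying CKO library. At P3 Ccnb1 was at 55.1, 53.4, 53.8 and 58.2 CPM in controls and at 51.1, 86.7, 80.5 and 76 CPM in CKO lungs. Control replicates 1 and 2 had the lowest values of all 24 libraries, the thymus-carrying control reached the P3 range, and P0 CKO replicates 1 and 2 lay just under the lowest P3 CKO library. For Ccnb1 the log2 fold change from E16 to P0 was -2.77 ± 0.42 in controls and -2.33 ± 0.41 in the CKO group (adjusted p = 1.64e-05 and 9.43e-05, edgeR). The value for Ccnb1 from P0 to P3 was 1.19 ± 0.40 and 1.08 ± 0.39 (adjusted p = 0.0556 and 0.0728). Ccnb1 without the thymus-carrying libraries had changes of -3.57 ± 0.33 and -2.53 ± 0.31 from E16 to P0 and 1.98 ± 0.31 and 1.28 ± 0.29 from P0 to P3, all called by edgeR (adjusted p of 0.00835 or less).

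The 3 further mitotic kinases, Plk1, Aurka and Pbk, had medians of 15.7% in controls and 19.9% in CKO lungs at P0, or 10.4% and 13.5% without the thymus-carrying libraries, and 31.1% and 37.8% at P3, the lowest P3 medians of the 8 roles. Plk1 (ENSMUSG00000030867, mm10 chromosome 7, 122159439 to 122169873) encodes polo-like kinase 1, which acts at centrosomes, kinetochores and the midzone. At E16 Plk1 stood at 65.3, 70.7, 51.3 and 40.8 CPM in control replicates 1 to 4 and at 46.7, 47.9, 63.7 and 56.7 CPM in CKO replicates 1 to 4. At P0 Plk1 was at 4.98, 5.10 and 7.09 CPM in control replicates 1, 2 and 4 and at 10.6, 5.55 and 5.63 CPM in CKO replicates 2, 3 and 4. Plk1 had 16.6 CPM in the thymus-carrying control and 21.1 CPM in the thymus-carrying CKO library. At P3 Plk1 was at 21.2, 12, 11.3 and 18 CPM in controls and at 18.6, 19.8, 17.3 and 13.2 CPM in CKO lungs. Every P0 and P3 library was below every E16 library, the thymus-carrying control lay among the P3 controls, and the thymus-carrying CKO library lay above the P3 CKO lungs. Between E16 and P0 the log2 fold change of Plk1 was -2.75 ± 0.40 (control) and -2.33 ± 0.39 (CKO), at adjusted p of 1.10e-05 and 6.15e-05 by edgeR. Between P0 and P3 it was 0.88 ± 0.38 and 0.69 ± 0.38, at adjusted p of 0.131 and 0.228. Plk1 without the thymus-carrying libraries had changes of -3.32 ± 0.29 and -2.89 ± 0.28 from E16 to P0 and 1.45 ± 0.27 and 1.25 ± 0.26 from P0 to P3, all called by edgeR (adjusted p of 0.00502 or less). At P3 Plk1 had 27.4% of its E16 mean in controls and 32% in CKO lungs, the lowest share among the 38 members in each genotype, with log2 fold changes against E16 of -1.87 ± 0.39 and -1.64 ± 0.38 (adjusted p = 0.000638 and 0.00202, edgeR).

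Pbk, which encodes a kinase active in mitosis, was 14% of its E16 mean in P0 CKO lungs, the lowest share of the 38 there with all libraries, and rose 3.83-fold from P0 to P3, the largest rise in that genotype. Without the thymus-carrying library its share was 13%, above the 12% of Kif2c, and its rise was 4.12-fold, again the largest. In the P0 CKO lungs it was at 9.95, 5.13 and 6.73 CPM in replicates 2, 3 and 4 and 9.5 CPM in the thymus-carrying library, and in the P3 CKO lungs at 28.3, 28.5, 37.4 and 25.5 CPM. The groups did not overlap, and the thymus-carrying CKO library did not stand out for Pbk. The log2 fold changes in CKO lungs were -2.84 ± 0.29 from E16 to P0 and 1.94 ± 0.28 from P0 to P3 (adjusted p = 1.03e-07 and 0.000304, edgeR).

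The chromosomal passenger complex corrects faulty attachments and acts again in cytokinesis, and its 3 members here had medians of 22.4% in controls and 22.2% in CKO lungs at P0, or 16.3% and 18.8% without the thymus-carrying libraries, and 40.9% and 44.4% at P3. Aurkb (ENSMUSG00000020897, mm10 chromosome 11, 69045647 to 69051664) encodes its kinase. At E16 Aurkb stood at 83.4, 92.8, 75.4 and 59.8 CPM in control replicates 1 to 4 and at 72.1, 79.8, 92.3 and 83.2 CPM in CKO replicates 1 to 4. At P0 Aurkb was at 6.48, 7.52 and 17 CPM in control replicates 1, 2 and 4 and at 20.7, 11.4 and 10.3 CPM in CKO replicates 2, 3 and 4. Aurkb had 23.3 CPM in the thymus-carrying control and 25.5 CPM in the thymus-carrying CKO library. At P3 Aurkb was at 31.5, 27.1, 27.2 and 32.5 CPM in controls and at 31.4, 36.6, 35.1 and 30.6 CPM in CKO lungs. The stages did not overlap in either genotype, the thymus-carrying libraries being the highest at P0. For Aurkb the log2 fold change from E16 to P0 was -2.52 ± 0.32 in controls and -2.27 ± 0.32 in the CKO group (adjusted p = 1.88e-06 and 6.00e-06, edgeR). The value for Aurkb from P0 to P3 was 1.12 ± 0.31 and 0.98 ± 0.31 (adjusted p = 0.0237 and 0.0386). Aurkb without the thymus-carrying libraries had changes of -2.91 ± 0.29 and -2.53 ± 0.28 from E16 to P0 and 1.52 ± 0.27 and 1.24 ± 0.27 from P0 to P3, all called by edgeR (adjusted p of 0.00527 or less).

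Birc5 (ENSMUSG00000017716, mm10 chromosome 11, 117849251 to 117855743) encodes survivin, which places the complex at centromeres. At E16 Birc5 was measured at 98.7, 104, 84.3 and 76.1 CPM in control replicates 1 to 4 and at 81.8, 84.3, 100.2 and 91.8 CPM in CKO replicates 1 to 4. At P0 Birc5 was at 13.3, 11.8 and 19.2 CPM in control replicates 1, 2 and 4 and at 25.3, 13 and 12.2 CPM in CKO replicates 2, 3 and 4. Birc5 had 37.1 CPM in the thymus-carrying control and 29.1 CPM in the thymus-carrying CKO library. At P3 Birc5 was at 41.2, 34.4, 33.9 and 43.7 CPM in controls and at 34.4, 40.3, 46.5 and 38 CPM in CKO lungs. The thymus-carrying control reached the P3 control range, and the other P0 libraries were below all P3 libraries. Between E16 and P0 the log2 fold change of Birc5 was -2.15 ± 0.29 (control) and -2.17 ± 0.29 (CKO), at adjusted p of 4.69e-06 and 4.32e-06 by edgeR. Between P0 and P3 it was 0.91 ± 0.29 and 1.00 ± 0.29, at adjusted p of 0.0426 and 0.0259. Birc5 without the thymus-carrying libraries had changes of -2.62 ± 0.23 and -2.41 ± 0.23 from E16 to P0 and 1.38 ± 0.22 and 1.24 ± 0.22 from P0 to P3, all called by edgeR (adjusted p of 0.00121 or less). Incenp, the scaffold of the complex, had the smallest rise from P0 to P3 in controls, 1.49-fold (0.58 ± 0.23, adjusted p = 0.102, edgeR), and without the thymus-carrying libraries the smallest in CKO lungs, 1.70-fold (0.77 ± 0.18, adjusted p = 0.00947). In controls without the thymus-carrying library it rose 1.84-fold, and the smallest rise was then that of Ncaph, 1.81-fold.

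The spindle checkpoint and anaphase group (Mad2l1, Bub1, Bub1b, Ttk, Cdc20, Ube2c and Espl1) had medians of 18.9% in controls and 23.2% in CKO lungs at P0, or 12.1% and 17.1% without the thymus-carrying libraries, and 37.6% and 43.5% at P3. Cdc20 (ENSMUSG00000006398, mm10 chromosome 4, 118432901 to 118437352) encodes the activator of the anaphase-promoting complex that the checkpoint holds back. At E16 Cdc20 was at 124, 135, 109 and 90.8 CPM in control replicates 1 to 4 and at 104, 110.0, 132 and 128 CPM in CKO replicates 1 to 4. At P0 Cdc20 was at 8.78, 13.9 and 18.9 CPM in control replicates 1, 2 and 4 and at 23.6, 19.7 and 17.5 CPM in CKO replicates 2, 3 and 4. Cdc20 had 46.1 CPM in the thymus-carrying control and 57.3 CPM in the thymus-carrying CKO library. At P3 Cdc20 was at 40.8, 38, 31.3 and 40.2 CPM in controls and at 34.1, 44.8, 47.9 and 38.1 CPM in CKO lungs. Both thymus-carrying libraries exceeded the other P0 libraries of their genotype and the P3 libraries as well, and without them P0 and P3 did not overlap. For Cdc20 the log2 fold change from E16 to P0 was -2.38 ± 0.38 in controls and -2.01 ± 0.38 in the CKO group (adjusted p = 3.55e-05 and 0.000201, edgeR). The value for Cdc20 from P0 to P3 was 0.77 ± 0.37 and 0.48 ± 0.37 (adjusted p = 0.173 and 0.393). Cdc20 without the thymus-carrying libraries had changes of -3.05 ± 0.22 and -2.55 ± 0.21 from E16 to P0 and 1.44 ± 0.20 and 1.02 ± 0.20 from P0 to P3, all called by edgeR (adjusted p of 0.00286 or less). With all libraries its rise from P0 to P3 was the smallest of the 38 in CKO lungs.

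The centromere and kinetochore genes (Cenpa, Cenpe, Cenpf, Ndc80 and Nuf2) had medians of 18.6% in controls and 20.2% in CKO lungs at P0, or 12.6% and 21.3% without the thymus-carrying libraries, and 49% and 55.6% at P3. Cenpf (ENSMUSG00000026605, mm10 chromosome 1, 189640606 to 189688086) encodes a large kinetochore and nuclear matrix protein. At E16 Cenpf was at 146, 139, 137 and 219.7 CPM in control replicates 1 to 4 and at 286, 154, 136 and 156 CPM in CKO replicates 1 to 4. At P0 Cenpf was at 24.2, 12.4 and 20.9 CPM in control replicates 1, 2 and 4 and at 63.4, 37.5 and 15.7 CPM in CKO replicates 2, 3 and 4. Cenpf had 56.8 CPM in the thymus-carrying control and 30.9 CPM in the thymus-carrying CKO library. At P3 Cenpf was at 84.9, 77.4, 72.8 and 99.997 CPM in controls and at 71.7, 128, 131 and 121 CPM in CKO lungs. Control replicate 4 and CKO replicate 1 stood well above the other E16 libraries, P3 CKO replicate 1 was the lowest P3 library and well below the other P3 CKO lungs, and the stages did not overlap. Between E16 and P0 the log2 fold change of Cenpf was -2.49 ± 0.41 (control) and -2.31 ± 0.40 (CKO), at adjusted p of 4.07e-05 and 8.67e-05 by edgeR. Between P0 and P3 it was 1.55 ± 0.39 and 1.61 ± 0.39, at adjusted p of 0.0172 and 0.0116. Cenpf without the thymus-carrying libraries had changes of -3.07 ± 0.39 and -2.23 ± 0.37 from E16 to P0 and 2.13 ± 0.38 and 1.54 ± 0.36 from P0 to P3, all called by edgeR (adjusted p of 0.01 or less). Cenpf at 11130 bases and Mki67 at 10061 bases have the longest transcripts of the members, and the libraries differed with transcript length across all genes. Deviations from the other libraries of the same group were taken on the log2 scale for genes of 8000 bases and over, less those under 2000. The difference was 0.54 in E16 control replicate 4, 0.82 in E16 CKO replicate 1 and -0.68 in E16 CKO replicate 3. At P0 it ran from -0.47 in CKO replicate 4 to 0.39 in CKO replicate 3, with 0.37 in control replicate 1. At P3 it was -0.17 in CKO replicate 1 and -0.05 to 0.07 in the other libraries. The part of transcript length in the Cenpf and Mki67 values was not tested gene by gene.

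Among genes of chromosome structure (Mki67, Top2a, Ncapg and Ncaph) the medians were 22.3% in controls and 21% in CKO lungs at P0, or 14.1% and 20.7% without the thymus-carrying libraries, and 51.4% and 55.4% at P3, the highest P3 median of the 8 roles in controls. Mki67 (ENSMUSG00000031004, mm10 chromosome 7, 135689784 to 135716361) encodes the Ki-67 protein, which coats mitotic chromosomes and is the usual marker of cycling cells. At E16 Mki67 was measured at 668, 676, 679 and 944 CPM in control replicates 1 to 4 and at 1145, 747, 655 and 766 CPM in CKO replicates 1 to 4. At P0 Mki67 was at 116, 87.7 and 128 CPM in control replicates 1, 2 and 4 and at 305, 165 and 92.4 CPM in CKO replicates 2, 3 and 4. Mki67 had 329 CPM in the thymus-carrying control and 155 CPM in the thymus-carrying CKO library. At P3 Mki67 was at 369.5, 348, 381 and 417 CPM in controls and at 305, 509.5, 535 and 489 CPM in CKO lungs. Control replicate 4 and CKO replicate 1 were the highest at E16, the thymus-carrying control was far above the other P0 controls, and P0 CKO replicate 2, a lung library, was nearly level with the lowest P3 CKO library. For Mki67 the log2 fold change from E16 to P0 was -2.17 ± 0.35 in controls and -2.21 ± 0.35 in the CKO group (adjusted p = 3.60e-05 and 3.07e-05, edgeR). The value for Mki67 from P0 to P3 was 1.20 ± 0.34 and 1.36 ± 0.34 (adjusted p = 0.0284 and 0.0138). Mki67 without the thymus-carrying libraries had changes of -2.75 ± 0.31 and -2.14 ± 0.30 from E16 to P0 and 1.78 ± 0.30 and 1.29 ± 0.29 from P0 to P3, all called by edgeR (adjusted p of 0.00745 or less).

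Top2a (ENSMUSG00000020914, mm10 chromosome 11, 98992943 to 99024189) encodes topoisomerase II alpha, which untangles sister chromatids. At E16 Top2a was measured at 588, 556, 607 and 685 CPM in control replicates 1 to 4 and at 801, 581, 467 and 661 CPM in CKO replicates 1 to 4. At P0 Top2a was at 70.4, 66.9 and 104 CPM in control replicates 1, 2 and 4 and at 203, 89.8 and 58.7 CPM in CKO replicates 2, 3 and 4. Top2a had 304 CPM in the thymus-carrying control and 160.3 CPM in the thymus-carrying CKO library. At P3 Top2a was at 315, 285, 322 and 336 CPM in controls and at 254, 376, 407 and 351 CPM in CKO lungs. The thymus-carrying control lay within the P3 control range, and no other P0 library reached the P3 libraries. Between E16 and P0 the log2 fold change of Top2a was -2.16 ± 0.39 (control) and -2.29 ± 0.40 (CKO), at adjusted p of 0.000134 and 7.64e-05 by edgeR. Between P0 and P3 it was 1.21 ± 0.38 and 1.44 ± 0.38, at adjusted p of 0.0451 and 0.0187. Top2a without the thymus-carrying libraries had changes of -2.92 ± 0.31 and -2.42 ± 0.31 from E16 to P0 and 1.97 ± 0.30 and 1.56 ± 0.29 from P0 to P3, all called by edgeR (adjusted p of 0.00232 or less). Ncaph, which encodes a condensin I subunit, fell the least, to 36.1% of its E16 mean in P0 controls and 31.7% in P0 CKO lungs (-1.47 ± 0.15 and -1.66 ± 0.15, adjusted p = 7.85e-08 and 1.54e-08, edgeR).

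Ncaph also had the profile over the 6 group means that departed most from the mean profile of the 38 members, by a residual SD of 0.436 on the log2 scale, followed by Incenp (0.365) and Pbk (0.331), where the median member departed by 0.176. The same 3 came first without the thymus-carrying libraries. In single libraries Ncaph ran from 110.4, 129, 108 and 99.6 CPM in E16 controls to 30.9, 36.8 and 43.2 CPM in P0 control replicates 1, 2 and 4 and 50.3 CPM in the thymus-carrying control. It was back at 65.2, 69.6, 64.6 and 68.7 CPM in P3 controls, so the groups were close within and did not overlap between stages.

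The spindle and motor genes (Kif11, Kif4, Kif2c, Tpx2, Hmmr and Nusap1) had medians of 17.8% in controls and 17.1% in CKO lungs at P0, or 11.7% and 16.8% without the thymus-carrying libraries, and 43.3% and 47.8% at P3. Kif2c, which encodes the microtubule-depolymerising kinesin of the centromere, fell furthest of the 38 in controls. It was at 91.3, 104, 81.9 and 81.7 CPM in E16 controls, at 6.18, 5.57 and 10.6 CPM in P0 control replicates 1, 2 and 4 and at 22.7 CPM in the thymus-carrying control, which was the highest P0 control and still far below E16. Its log2 fold change was -2.99 ± 0.36 (12.6% of E16, adjusted p = 9.40e-07, edgeR), and -3.59 ± 0.25 without the thymus-carrying libraries.

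The midzone and cytokinesis genes (Kif20a, Kif23, Prc1, Anln and Ect2) had medians of 18% in controls and 21.1% in CKO lungs at P0, or 14% and 21.4% without the thymus-carrying libraries, and 43.1% and 51.2% at P3. Kif23 (ENSMUSG00000032254, mm10 chromosome 9, 61915905 to 61946774) encodes the kinesin of centralspindlin, which bundles midzone microtubules. At E16 Kif23 was measured at 138, 149, 133 and 136 CPM in control replicates 1 to 4 and at 147, 120.3, 121 and 141 CPM in CKO replicates 1 to 4. At P0 Kif23 was at 20.5, 14.8 and 23.1 CPM in control replicates 1, 2 and 4 and at 42, 25.1 and 18.6 CPM in CKO replicates 2, 3 and 4. Kif23 had 41.6 CPM in the thymus-carrying control and 28.6 CPM in the thymus-carrying CKO library. At P3 Kif23 was at 62.6, 52.5, 59.7 and 64.5 CPM in controls and at 55.5, 74.6, 75.2 and 65.6 CPM in CKO lungs. The stages did not overlap in either genotype, thymus-carrying libraries included. For Kif23 the log2 fold change from E16 to P0 was -2.47 ± 0.24 in controls and -2.21 ± 0.24 in the CKO group (adjusted p = 7.07e-08 and 2.40e-07, edgeR). The value for Kif23 from P0 to P3 was 1.26 ± 0.23 and 1.25 ± 0.23 (adjusted p = 0.00248 and 0.00202). Kif23 without the thymus-carrying libraries had changes of -2.83 ± 0.21 and -2.21 ± 0.21 from E16 to P0 and 1.62 ± 0.20 and 1.25 ± 0.20 from P0 to P3, all called by edgeR (adjusted p of 0.000705 or less).

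Anln encodes anillin, the scaffold of the contractile ring, and with all libraries had the smallest p of the 38 from E16 to P0 in controls (-2.66 ± 0.24, adjusted p = 3.16e-08, edgeR, against -2.32 ± 0.24, 1.47e-07, in CKO lungs) and from P0 to P3 in both genotypes (1.85 ± 0.24, 0.000141, and 1.70 ± 0.24, 0.000229). In P0 controls it was at 21.3, 15 and 28.8 CPM in replicates 1, 2 and 4 and 29.3 CPM in the thymus-carrying one, and in P3 controls at 84.5, 79.8, 86.6 and 89.2 CPM. In P0 CKO lungs it was at 52.4, 27.2 and 20.7 CPM in replicates 2, 3 and 4 and 19.9 CPM in the thymus-carrying one, and in P3 CKO lungs at 83.3, 107, 107 and 92.5 CPM. The thymus-carrying control was level with replicate 4, the thymus-carrying CKO library was the lowest of its group, and P0 and P3 did not overlap. The changes of Anln without the thymus-carrying libraries were -2.78 ± 0.25 and -2.17 ± 0.24 from E16 to P0 and 1.97 ± 0.24 and 1.54 ± 0.24 from P0 to P3. Anln also kept the largest share of its E16 level at P3 in CKO lungs, 64.8% (-0.63 ± 0.23, adjusted p = 0.0357). Next in p from P0 to P3 in controls were Prc1, a microtubule crosslinker of the midzone (1.64 ± 0.25, adjusted p = 0.000723), and Ttk, the MPS1 checkpoint kinase (1.67 ± 0.28, 0.0011), and in CKO lungs Nuf2, an NDC80 complex subunit, followed Anln and Pbk (1.63 ± 0.25, 0.000516), all by edgeR.

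**Figure D3:**
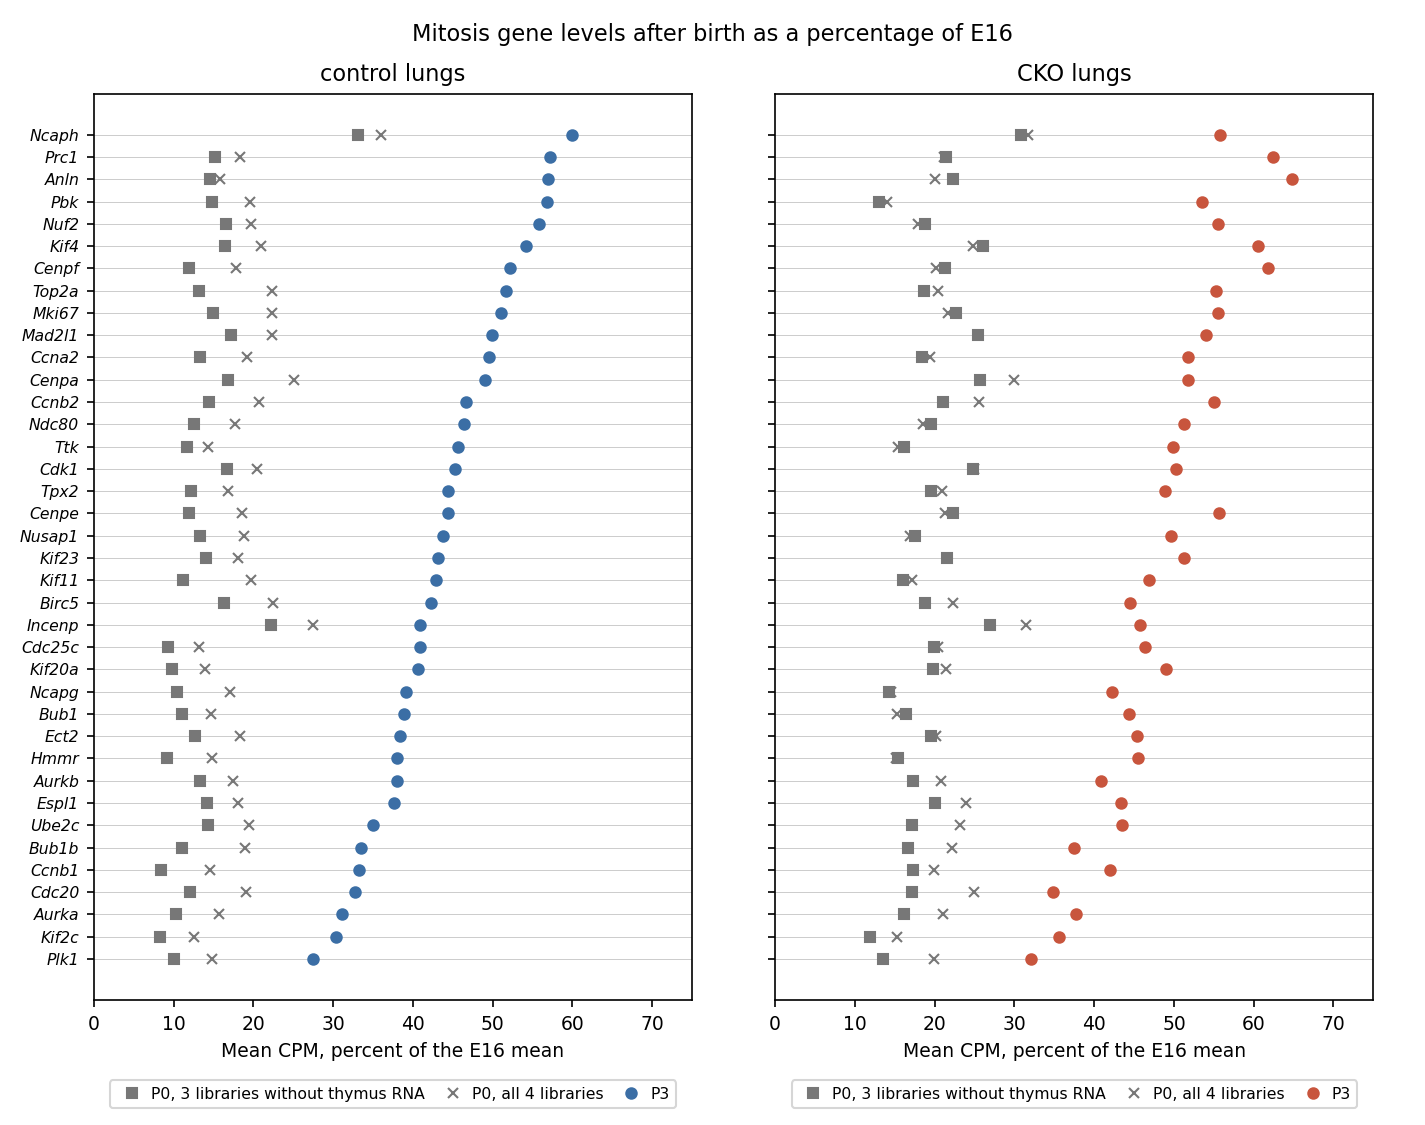
Points give each member's mean CPM at P0 and at P3 as a percentage of its E16 mean in the same genotype. The 38 members are ordered by their P3 share in controls. P3 points are blue for controls and red for CKO lungs. P0 points are grey, with crosses for all libraries and squares without the thymus-carrying ones. All points lie below 100%. At P3 the shares run from 27.4 to 59.96% in controls and from 32 to 64.8% in CKO lungs.

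CKO and control lungs were compared at each stage in fits of that stage's 8 libraries. No member passed the quasi-likelihood test of edgeR (p adjusted over all genes after Benjamini and Hochberg) at E16, P0 or P3, where 0.0181%, 0.0407% and 0.0117% of all genes did, and none passed with DESeq2 or limma-voom. At an unadjusted p under 0.05 there were 0, 0 and 10 members, where 10.5%, 6.44% and 15.4% of all genes passed that. The estimates were mostly positive, for 31 members at E16 with a median of 0.09, 30 at P0 with a median of 0.26 and 36 at P3 with a median of 0.21 on the log2 scale, beside -0.01, -0.02 and -0.01 over all genes. With 1 library left out the median ran from 0.05 to 0.13 at E16, -0.07 to 0.66 at P0 and 0.17 to 0.31 at P3, the P0 median being lowest without CKO replicate 2, a lung library, and highest without the thymus-carrying control. The members of a library share its cells, so these counts of signs are descriptions. For 0 of 38 members did the 4 CKO libraries of any stage stand apart from the 4 controls, where 3.52%, 2.76% and 4.11% of all genes stood apart upward and 2.22%, 1.85% and 3.34% downward.

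At E16 the estimates ran from -0.07 ± 0.17 for Plk1 to 0.23 ± 0.10 for Cdc25c, the phosphatase gene that activates CDK1 (adjusted p = 0.935 and 0.49, edgeR). At P0 they ran from -0.56 ± 0.41 for Pbk to 0.81 ± 0.51 for Cdc25c (0.949 and 0.905), and at P3 from -0.14 ± 0.13 for Pbk to 0.43 ± 0.18 for Cenpe, a kinetochore kinesin (0.646 and 0.299). Mki67 had 0.17 ± 0.20 at E16, 0.10 ± 0.47 at P0 and 0.27 ± 0.16 at P3 (0.831, 0.996 and 0.435). Its sign turned at E16 without CKO replicate 1 (to -0.04) and at P0 without control replicate 1, 2 or 4 or CKO replicate 2 (to between -0.29 and -0.02), and that of Plk1 turned at E16 without control replicate 2 (to 0.04). With Xist as a covariate, which was high in 4 of 4 CKO and 1 of 4 control libraries at E16, Mki67 turned to -0.21 and Plk1 to 0.37 there. That control was replicate 4, so the genotype estimate of this fit rested largely on 1 library and is not a plain adjustment for sex. The spread between replicates at P0 left these estimates with the widest errors of the 3 stages.

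**Figure D4:**
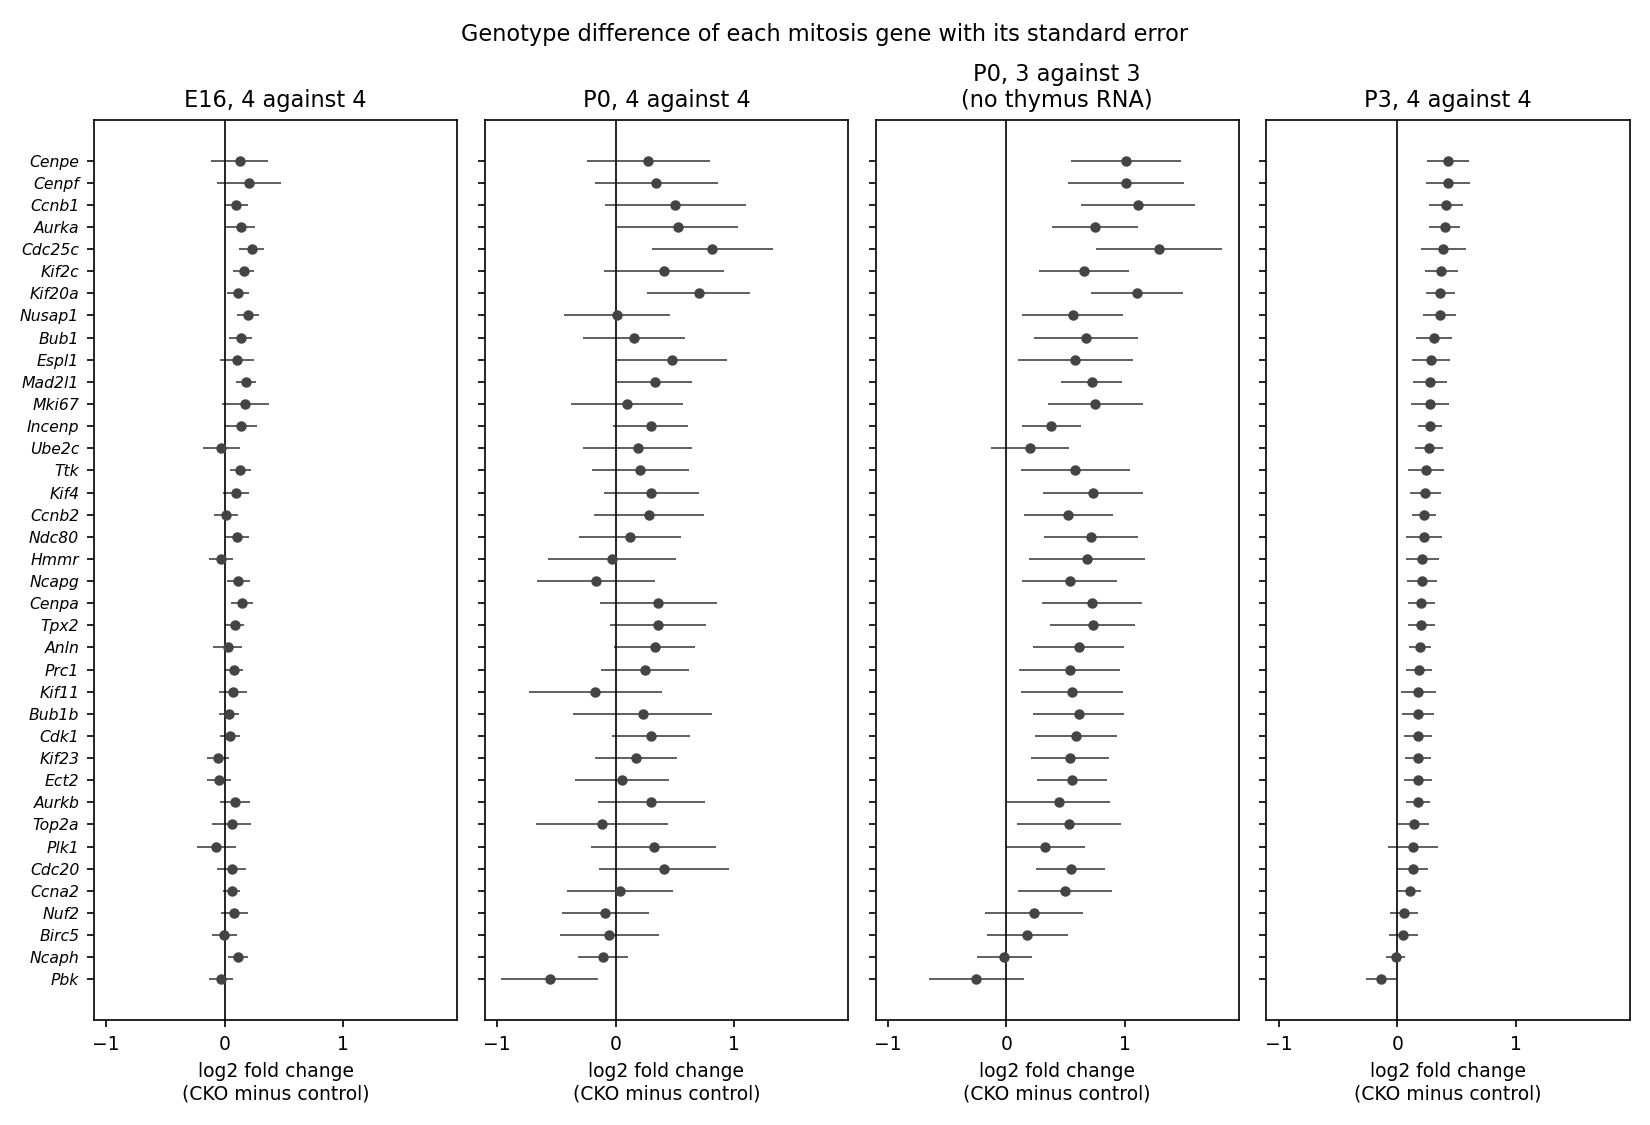
The points give the log2 fold change of each of the 38 members between CKO and control lungs, with its standard error. Panels show E16, P0 and P3 with all libraries, and P0 without the thymus-carrying ones. Most points lie above 0, and with all libraries none passed the test.

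At P0 the direction of the difference varied with which libraries were set against each other. Identifiers in the labels share a prefix between a control and a CKO lung, and within prefix 9903 the median member was 1.39 higher in the CKO lung on the log2 scale, with 38 of 38 positive, and within prefix 9468 it was 0.62 higher, with 36 positive. Within prefix 1022 it was -0.42, with 2 positive, and within 9605, the prefix of both thymus-carrying libraries, it was -0.39, with 10 positive. The labels do not say what the prefix stands for, and the direction differed between the 4 pairs. Without the thymus-carrying libraries 36 members were positive at P0 with a median of 0.58, 0 passed (background 0.0233%, edgeR), none with the prefix as a block, and 3 had an unadjusted p under 0.05 (background 9.38%). Of these 3 against 3 libraries, all CKO values exceeded all control values for 2 members, against a background of 8.96%. Those were Kif20a, a midzone kinesin, at 14.3, 11.2 and 21.8 CPM in controls and 53, 27.6 and 22 CPM in CKO lungs, and Mad2l1, a checkpoint protein gene, at 16.9, 18.8 and 22.5 and 44.1, 28.3 and 24 CPM. The lowest CKO and the highest control value differed little for both, with the thymus-carrying libraries at 42.2 and 45.6 CPM for Kif20a and 42.7 and 32.1 CPM for Mad2l1. In the same 3 against 3 libraries the summed endothelial markers were lower in CKO lungs with no overlap (2429.7 to 3053 against 3509 to 3825 CPM), as were the alveolar epithelial ones (11340.2 to 14397 against 15818 to 16913 CPM), while the mesenchymal ones overlapped (3679 to 4877 against 4564 to 5426 CPM). Their part in the members' differences was not tested.

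At P3 the result rested on CKO replicate 1, which was the lowest of the 4 CKO libraries for 34 of the 38 members. Ccnb1, for example, was at 55.1, 53.4, 53.8 and 58.2 CPM in controls, at 86.7, 80.5 and 76 CPM in CKO replicates 2, 3 and 4 and at 51.1 CPM in CKO replicate 1, so that 3 CKO lungs lay above all controls and 1 below them. As CKO replicate 1 was lowest for most members, leaving it out raises their CKO means, and calls made without it are descriptions. Without that library 15 members were higher in CKO lungs by edgeR, where 5.71% of 17369 genes were higher, and 37 of 38 were positive. Summed endothelial markers were at 2315, 2799 and 2125 CPM in these 3 CKO lungs, against 3041 to 3301 CPM in controls and 3304 CPM in CKO replicate 1. Alveolar epithelial markers were at 10419.7, 10758 and 10568 CPM against 10663 to 14158 and 12209, and mesenchymal ones at 4349, 5217 and 3899 CPM against 4708 to 6614 and 6172. The endothelial sums of CKO replicates 2 to 4 thus lay below all controls, and CKO replicate 1 just above them, and the part of these cells in the members' values was not tested. Among the members, the smallest p-values were those of Ccnb1 (0.55 ± 0.08, adjusted p = 0.00542), the spindle gene Nusap1 (0.49 ± 0.08, adjusted p = 0.00851) and Cenpf (0.59 ± 0.10, adjusted p = 0.00992), and the other 12 were Cdk1, Aurka, Incenp, Mad2l1, Bub1, Cenpa, Cenpe, Mki67, Kif4, Kif2c, Tpx2 and Kif20a. With all 8 libraries the changes of Ccnb1, Nusap1 and Cenpf were 0.41 ± 0.14, 0.36 ± 0.14 and 0.43 ± 0.18 (adjusted p = 0.232, 0.264 and 0.31). No other single library, left out in turn, gave a member called at P3. Within prefix 23 the median member was 0.25 higher in CKO lungs and within prefix 9902, whose 1 CKO lung was set against 2 controls, 0.22 higher, with 36 and 34 of 38 positive.

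With the dependence on transcript length taken out library by library, an alternative added after the data were seen, no member passed at E16, P0 or P3 with all libraries (lowest adjusted p = 0.301, 0.852 and 0.197, edgeR), with 3, 0 and 10 at an unadjusted p under 0.05. Without P3 CKO replicate 1 it gave 17 members, all higher, where 6.37% of all genes were higher. As above, calls made without that library are descriptions.

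Averaged over the stages, in a fit of 24 libraries with stage as a block, 0 members passed (background 8.38%, edgeR), 3 had an unadjusted p under 0.05 (background 22%) and 36 of 38 were positive, with a median of 0.18 beside -0.02 over all genes and from 0.09 to 0.30 with 1 library left out. DESeq2 and limma-voom called 0 members as well. Estimates ran from -0.23 ± 0.15 for Pbk to 0.47 ± 0.19 for Cdc25c, and Mki67 had 0.19 ± 0.19 (adjusted p = 0.401, 0.142 and 0.618). Without the thymus-carrying libraries Mad2l1 (0.36 ± 0.10, adjusted p = 0.0305) and Kif20a (0.46 ± 0.15, 0.0493) were higher in CKO lungs, where 7.16% of all genes were, so that the share of members called, 2 of 38, was near the background. With the identifier prefix as a block and all libraries, Aurka (0.39 ± 0.13, adjusted p = 0.0471), Kif2c (0.35 ± 0.12, adjusted p = 0.047) and Kif20a (0.42 ± 0.14, adjusted p = 0.0483) passed, where 8.6% of all genes were higher. With both changes Mad2l1, Kif2c and Kif20a passed (background 9.95%), and without P0 control replicate 3 alone Mad2l1 and Kif20a did (5.9%). The stages of this average differ in control genotype by title, as the P3 controls are given as F/F.

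Whether the genotype difference itself changed between stages was tested as an interaction in the fit of 24 libraries. No member passed for P0 against E16, P3 against P0 or P3 against E16, and 0 of 18415 genes did (edgeR). The members' median differences were 0.20, -0.02 and 0.16, with 0, 0 and 0 members at an unadjusted p under 0.05 (background 2.80%, 2.30% and 1.15%), and DESeq2 called 0 members. Without the thymus-carrying libraries the medians were 0.55 for P0 against E16 and -0.39 for P3 against P0, with 7 and 1 members at an unadjusted p under 0.05 (4.43% and 3.5% of all genes) and 0 called (background 0.00538% and 0%).

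A list of 72 further mitosis genes, chosen for their function but with earlier results of these data known, ran the same course. From E16 to P0, 70 fell in controls and 70 in CKO lungs, with medians of -2.15 and -2.02 on the log2 scale. From P0 to P3, 45 and 46 rose (medians 1.02 and 1.01), and 58 and 60 were lower at P3 than at E16. Of the 72, without the thymus-carrying libraries, 70 and 71 fell and 61 and 56 rose. The shares of all genes are those given for the members. Ckap2, a spindle-associated protein gene, fell by 2.51 ± 0.20 and Melk, a kinase gene of dividing cells, by 2.86 ± 0.24 in controls (adjusted p = 3.58e-09 and 1.15e-08, edgeR). In the average over stages 2 of the 72 were higher in CKO lungs, Bora, an activator of Aurora A and PLK1 (0.36 ± 0.08, adjusted p = 0.00778), and Cenpt, a kinetochore protein gene (0.28 ± 0.08, 0.0336), against 5.38% of all genes. Leaving out the thymus-carrying libraries, 5, Bora, Trip13, Cenpt, Ncapd2 and Tacc3, were higher, against 7.16%.

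Of 15 genes for regulators of mitotic transcription, the DREAM and MuvB subunits, E2F and RB family members and FOXM1, 8 fell and 1 rose from E16 to P0 in controls, where 22.3% of all genes fell and 25.3% rose, and 10 fell and 1 rose in CKO lungs (20.6% and 24.7%). These counts were the same without the thymus-carrying libraries. The MuvB gene Lin9 (-1.26 ± 0.11), Foxm1 (-2.06 ± 0.25), the activator of the G2 and M programme, and E2f3 (-1.18 ± 0.14) led the fall in controls, at adjusted p of 2.85e-08, 1.12e-06 and 1.24e-06 (edgeR). Foxm1 was at 125 ± 23 CPM in E16 controls (mean ± SD, n = 4), 29.9 ± 8.84 in P0 controls and 55.9 ± 9.16 in P3 controls, and at 125 ± 13.7, 35.2 ± 15.8 and 58.9 ± 7.92 CPM in CKO lungs. Its course thus went down at P0 and part of the way up at P3 in both genotypes. Rb1, the retinoblastoma gene that restrains entry into S phase, was higher at P3 than at E16 in both genotypes (0.73 ± 0.15 and 0.69 ± 0.15, adjusted p = 0.000534 and 0.00102), where 20% and 19.9% of all genes were, and was the 1 that rose from E16 to P0. From P0 to P3 5 regulators rose in controls and 5 in CKO lungs (4.97% and 6.15% of all genes), with Lin9 (0.66 ± 0.11 and 0.80 ± 0.11), Rbl1 (1.02 ± 0.20 and 1.19 ± 0.20) and Lin54 (0.51 ± 0.13 and 0.65 ± 0.13) among them. Without the thymus-carrying libraries 7 and 8 rose (10% and 5.45% of all genes). In the average over stages 1 regulator was called, Rbl2, which encodes the pocket protein p130 of DREAM, at 0.35 ± 0.10 (adjusted p = 0.0268), a share of 15 near the 5.38% of all genes called higher, and without the thymus-carrying libraries 4, Lin54, Rbl2, E2f5 and E2f3, were higher (background 7.16%).

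DNA replication genes, 30 in number and expressed earlier in the cycle, had smaller median changes than the mitosis genes, a difference that was not tested. From E16 to P0 30 fell in controls and 29 in CKO lungs (medians -1.42 and -1.53, background 22.3% and 20.6%), from P0 to P3 10 and 18 rose (medians 0.57 and 0.67, background 4.97% and 6.15%), and 25 and 27 were lower at P3 than at E16 (medians -0.82 and -0.86, background 21.1% and 18.8%). From P0 to P3, 26 and 25 rose without the thymus-carrying libraries (background 10% and 5.45%). The helicase subunit gene Mcm4 changed by -1.62 ± 0.20 from E16 to P0 in controls and the ribonucleotide reductase gene Rrm1 by -1.46 ± 0.18 (adjusted p = 1.02e-06 and 1.04e-06, edgeR). In the average over stages Gins2, a subunit of the replicative helicase, was the 1 called, at 0.34 ± 0.10 (adjusted p = 0.0376), where 5.38% of all genes were higher, and without the thymus-carrying libraries 3, Rfc3, Gins1 and Orc1, were higher (7.16%). The level of the 38 members less that of the replication genes, on the centred log2 scale, was 0.21 to 0.58 in E16 libraries and -0.03 to 0.24 in P3 libraries. At P0 it was -1.46 in control replicate 2 and -0.84 to 0.04 in the other 7, with -0.25 and -0.42 in the thymus-carrying control and CKO library, so the P0 libraries were the most spread in this measure too, and 1 control stood apart.

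**Figure D5:**
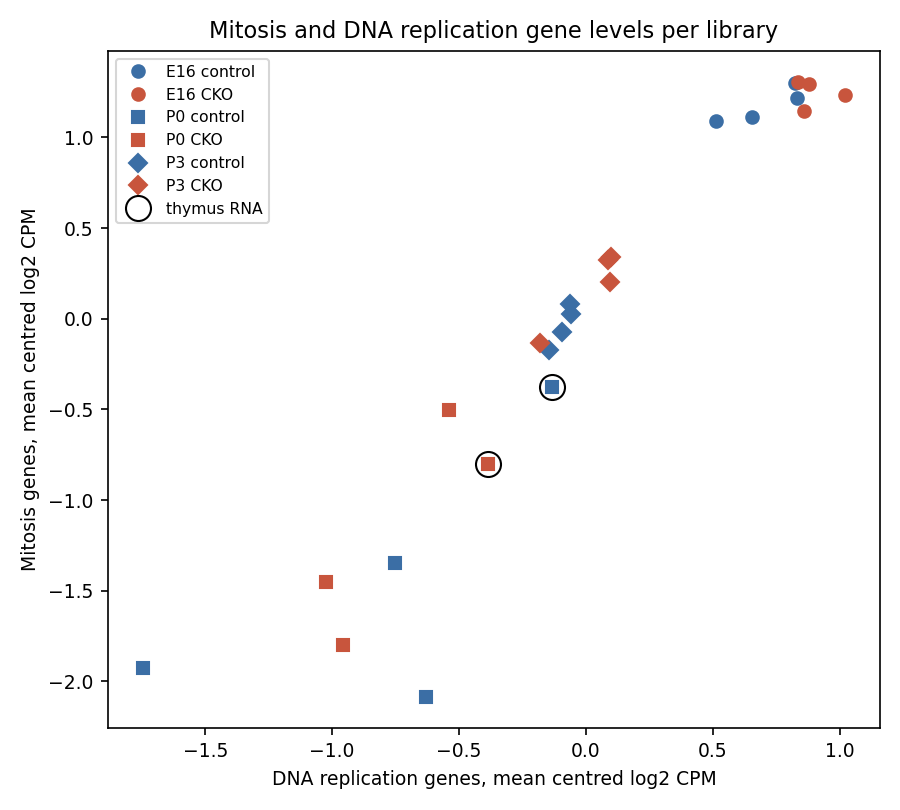
Each point is 1 library, with the mean centred log2 level of the 30 DNA replication genes on the horizontal axis and that of the 38 mitosis genes on the vertical axis, and controls in blue and CKO lungs in red. Circles are E16, squares P0 and diamonds P3, and an open black ring marks each thymus-carrying library. E16 libraries lie highest on both axes and P0 libraries lowest, except that the thymus-carrying control reaches the P3 libraries for the replication genes. P0 control replicate 2 lies lowest for the mitosis genes.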

How the data were processed

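Per the labels' protocols, TruSeq RNA libraries (Illumina) were made from 24 whole lungs of mice. The authors deposited expected counts from RSEM for each gene, all of them whole. The submitters' processing notes name STAR 2.5.3a, RSEM 1.3.0, edgeR and mm10 but give no roles. RSEM shares multi-mapped reads among genes by estimate, which makes counts of near-identical copies uncertain. Annotation and strand setting were not given in the sources used here. Libraries were grouped by their titles, which call them biological replicates, columns were matched by the identifier in the labels, and 0 columns were left unused. No libraries of a group agreed within sampling noise (lowest chi-square per gene 18.9).

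Libraries of 27.02 to 36.35 M counts make 1 CPM (a count per M counts) worth 27.02 to 36.35 counts. Genes passing filterByExpr were TMM-scaled and tested with edgeR 4.0.16 in R 4.3.3 (robust glmQLFit, glmQLFTest), with calls at an adjusted p under 0.05 (Benjamini-Hochberg over all genes tested). The ± of an edgeR fold change is a standard error worked back from the test, as the absolute change over the square root of F. Each stage's genotype comparison used its 8 libraries, the average used 24 with stage as a block, and stage contrasts and interactions used 24 in 6 groups, giving 13 comparisons. The fits were tested on simulated data with the same spread at every stage. That spread was slightly below the one found at E16 and well below that at P0, so neither stage's fits were tested at their own spread. Alternatives were DESeq2 1.42.0 and limma-voom (limma 3.58.1), other scalings and filters, blocks, an Xist covariate, length correction, removal of the thymus-carrying libraries and of each library in turn.

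The members and lists were chosen with earlier results of these data known. Members named with values were 10 fixed ones, the 3 smallest p-values per direction and comparison, the extremes of each comparison, those called where 5 or fewer were, and the 3 profiles farthest from the mean; of other lists, up to 3 by p. Same-numbered replicates correlated over 0.1 in 0 of 4 pairs at E16, 1 of 4 at P0 and 1 of 4 at P3, so the numbers were not taken as pairs. Libraries of a shared identifier prefix did so in 3 of 6 pairs at E16, 3 of 4 at P0 and 1 of 8 at P3.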

Additional observations from a re-analysis of the deposited data

Results flagged for a closer look

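Within the 6 groups of 4 libraries, 72 sets of values were examined for a single library far from the other 3 (Dixon's test). Such a library was found in 7 sets. Chance gives about 1 in 20 for a single set, but the sets share libraries and members, so the 7 cannot be weighed against it. At E16, control replicate 4 had 944 CPM of Mki67 against 668 to 679 CPM in the other controls and 219.7 CPM of Cenpf against 137 to 146 CPM, and CKO replicate 1 had 286 CPM of Cenpf against 136 to 156 CPM. At P3, CKO replicate 1 had 71.7 CPM of Cenpf against 121 to 131 CPM in the other CKO lungs. Cenpf and Mki67 have the longest transcripts of the 38 members, and E16 control replicate 4, E16 CKO replicate 1 and P3 CKO replicate 1 deviated with transcript length over all genes by 0.54, 0.82 and -0.17 on the log2 scale; its part in these values was not tested.

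At P0 the thymus-carrying libraries stood apart. Control replicate 3 had 329 CPM of Mki67 against 87.7 to 128 CPM in the other controls and 304 CPM of Top2a against 66.9 to 104 CPM. CKO replicate 1 had 57.3 CPM of Cdc20 against 17.5 to 23.6 CPM in the other CKO lungs. Thymocyte markers summed to 2250.3 and 1729 CPM in these libraries, and the part of thymus RNA in the values was not tested.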

How the results depend on the processing

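The counts of members called stayed within 1.5 times the reported ones in 116 of 121 comparisons with another setting and in 260 of 264 with 1 library left out. For the average over stages, where 0 members were called, 3 were called with the identifier prefix as a block, 2 without the thymus-carrying libraries and 3 with both changes, and leaving out 1 library gave 0 to 2, with 2 without P0 control replicate 3. The members called with both changes were Mad2l1, Kif2c and Kif20a. At P3, 0 to 15 members were called with 1 library left out, 15 without CKO replicate 1, and 17 without it after length correction. That library was the lowest of its group for most members, so calls made without it are descriptions. For controls from P0 to P3, 11 members were called where these groups were fitted alone in place of 29, and 16 to 38 with 1 library left out, 16 without P0 control replicate 1 or 2. At E16 the log2 fold change of Mki67 was -0.21 and that of Plk1 0.37 with Xist as a covariate, both of the opposite sign, and with 1 library left out they were -0.045 to 0.33 and -0.19 to 0.044. At P0 that of Mki67 was -0.29 to 0.69. The cause of these shifts was not tested. In the fit with Xist, control replicate 4 was the only E16 control with high Xist, so the genotype estimate rested largely on that library. With the replicate number as a block, the members called were 0 in every genotype comparison, and 38, 27 and 36 in controls and 38, 28 and 34 in CKO lungs for P0 against E16, P3 against P0 and P3 against E16. The lowest level of a member in a library was 1.17 CPM (Cdc25c, 34 counts), so counting error was small beside the spread between libraries, which was widest at P0, with a biological coefficient of variation of 0.389 against 0.215 at E16 and 0.188 at P3.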
